A study of Mus musculus with 6 samples.

Results

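The H19-Igf2 and Kcnq1 imprinted cluster of mouse chromosome 7 was followed through 8 genes, found by their symbols among the 24984 gene symbols of the count tables: H19, Igf2, Cdkn1c, Phlda2, Slc22a18, Kcnq1ot1, Kcnq1 and Tssc4. They were picked from these same libraries, because H19 is high in one mutant line and Phlda2 in the other. Their differences between lines are therefore given as a description, with no test. The RNA, depleted of its ribosomal part, was from the mouse embryonic stem cell line E14TG2a in N2B27, a defined medium without serum. The D395A group (2 libraries) carried the D395A substitution of METTL3, placed with CRISPR/Cas9 by homology-mediated end joining. The KO group (2 libraries) came from a METTL3 knockout line made with CRISPR/Cas9, and the WT group (2 libraries) came from E14TG2a cells labelled WT. METTL3 is the active subunit of the methyltransferase that places m6A (N6-methyladenosine) in RNA, and D395A replaces an aspartate of its catalytic motif. The stated aim of the study was the link between m6A and circular RNA, neither of which was analysed here.

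Each mutant genotype is treated here as 1 line. The labels do not state how many clones it comes from, or if replicate libraries are separate cultures or clones. P-values of other genes therefore measure only the spread between these libraries, and genotype cannot be told apart from the history of a line. Gene counts per library ran from 22859491 to 40476809. Mettl3 had 21.1 and 23.4 CPM (counts made comparable between libraries of unequal depth) in D395A, 7.82 and 6.17 CPM in KO, against 28.5 and 31.6 CPM in WT. All 10 embryonic stem cell markers were detected in every group, with summed levels of 2162 and 2236 CPM in D395A, 4840 and 4819 CPM in KO, against 4238 and 4294 CPM in WT. At an adjusted p under 0.05 (edgeR), 1 rose and 8 fell in D395A against WT (median log2 fold change -0.94). In KO, 4 rose and 4 fell (median 0.06). Of all genes, 70.3% were called in D395A and 66.2% in KO. The largest changes among the 10 were -3.79 for Tdgf1 in D395A and -3.25 for Lin28a in KO. Reads on the strand opposite to an abundant gene were more frequent in some libraries. Over 31 gene pairs, their median share was 3.24% and 2.66% of the abundant partner in D395A, 1.40% and 0.339% in KO, and 0.196% and 0.167% in WT. This share and the genotype cannot be told apart in D395A against WT, so the overlap of each gene with opposite-strand genes is given with its values.

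Imprinted genes are expressed mainly from the allele of 1 parent. In the H19-Igf2 domain, the insulator protein CTCF binds an unmethylated control region on the maternal chromosome, where H19, a noncoding RNA, is expressed, while Igf2, a fetal growth factor, is expressed from the paternal chromosome. In the neighbouring Kcnq1 domain, the noncoding RNA Kcnq1ot1 is made from the paternal chromosome and silences protein-coding genes there, among them Cdkn1c and Phlda2, which restrain growth of the fetus and the placenta. Gene counts do not separate alleles, so the values below are sums over both. The 8 genes lie within 927.6 kb, from H19 at chr7:142575529-142578143 to Phlda2 at chr7:143501545-143503150 (GRCm38, both on the minus strand).

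The sequences before the starts of 3 genes of the Kcnq1 domain are shown. Phlda2 and its neighbour Slc22a18, whose gene bodies lie 2.21 kb apart on opposite strands, were both highest in KO, while Kcnq1ot1 was lowest there. Each is 250 bases before the RefSeq start (GRCm38.p6), 5′ to 3′ on the strand of the gene, at chr7:143502525-143502774 (minus), chr7:143473539-143473788 (plus) and chr7:143296548-143296797 (minus). Capitals mark CCAAT and TATAAA on either strand.
Phlda2: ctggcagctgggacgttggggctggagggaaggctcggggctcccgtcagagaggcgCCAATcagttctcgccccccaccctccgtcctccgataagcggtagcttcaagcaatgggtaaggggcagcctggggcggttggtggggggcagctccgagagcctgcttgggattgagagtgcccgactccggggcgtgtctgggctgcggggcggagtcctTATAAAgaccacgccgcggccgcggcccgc
Slc22a18: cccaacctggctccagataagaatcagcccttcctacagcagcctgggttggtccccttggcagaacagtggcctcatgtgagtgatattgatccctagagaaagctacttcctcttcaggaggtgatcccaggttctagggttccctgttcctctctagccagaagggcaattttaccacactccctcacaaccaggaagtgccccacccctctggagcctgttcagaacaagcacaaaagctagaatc
Kcnq1ot1: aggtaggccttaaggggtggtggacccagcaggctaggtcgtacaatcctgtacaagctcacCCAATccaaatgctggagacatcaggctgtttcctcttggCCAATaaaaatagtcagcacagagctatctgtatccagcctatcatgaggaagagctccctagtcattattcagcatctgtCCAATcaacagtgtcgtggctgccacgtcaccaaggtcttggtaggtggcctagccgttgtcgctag

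RefSeq promoters of 300 bases (250 before and 50 after the start) were found for 5 of the 8 genes. The Phlda2 promoter held 1 CCAAT, 193 bases before the start, 1 TATAAA, 30 bases before it, 2 GGGCGG and 26 CpG. The Kcnq1ot1 promoter held 3 CCAAT, at 188, 148 and 67 bases before the start, with no TATAAA or GGGCGG and 9 CpG. The Slc22a18 promoter held none of these motifs and 2 CpG. Over 32851 mouse promoters of the same length, 37.4% held CCAAT, 13.6% held TATAAA and 35.7% held GGGCGG on either strand, and the median number of CpG was 7 (quartiles 3 and 20). CCAAT is bound by the factor NF-Y and TATAAA by the TATA-binding protein. No 2 matches overlap in these promoters, and a match describes letters, not binding.

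H19 is also the precursor of miR-675, whose mature strands are shown because the level of H19 separates D395A from the other lines. They are from RefSeq (GRCm38.p6, chr7:142577112-142577133 and chr7:142577078-142577099, minus strand), with the seed, bases 2 to 8, in capitals. The seeds differ from each other.
mmu-miR-675-5p: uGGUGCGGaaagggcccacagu
mmu-miR-675-3p: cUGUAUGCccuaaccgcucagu
The precursor Mir675 had 0 counts in all 6 libraries, but it shares 84 bases with H19 exons on the same strand. Reads there fit both genes, so the 0 is no measure of its level. The libraries were made from long RNA, so the mature miRNAs were not measured here.

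H19 had 32.8 and 35.2 CPM in D395A, 0.682 and 0.691 CPM in KO, against 0.762 and 1.02 CPM in WT. Both D395A libraries lay far above all others, and both KO libraries lay just below WT. The mean was 34.0 ± 1.68 CPM in D395A, against 0.891 ± 0.182 CPM in WT (SD, n = 2 each), a log2 fold change of 5.26 ± 0.14 (SE of the fit). From pooled counts, 2041 in D395A against 68 in WT, the ratio was 38.8, with an exact 95% interval of 30.5 to 50.2 that covers counting error only. KO against WT gave a log2 fold change of -0.36 ± 0.24, and the ratio of 48 to 68 pooled counts was 0.777 (0.526 to 1.14). In bulk RNA, fewer cells with the transcript and less transcript per cell cannot be told apart. Opposite-strand genes overlap 5.73% of H19 exon length.

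Igf2 was high in both mutant lines, with 8.26 and 11.6 CPM in D395A, 6.03 and 7.20 CPM in KO, against 0.197 and 0.358 CPM in WT. The WT values rest on 8 and 13 counts. No mutant library overlapped WT, and no D395A library overlapped KO. The log2 fold change was 5.18 ± 0.28 for D395A against WT and 4.58 ± 0.29 for KO against WT, and pooled counts gave ratios of 37.8 (24.5 to 61.5) and 24.2 (15.7 to 39.5). So Igf2 was high in D395A together with H19, and high in KO without it. D395A against KO gave 0.60 ± 0.19 for Igf2 and 5.62 ± 0.15 for H19. Igf2 shares 62.8% of its exon length with Gm49394 on the same strand, which was not counted in these tables, and 1.71% with its antisense gene Igf2os. Igf2os itself had 25 counts in D395A, 24 in KO and 1 in WT, that is 32.3 times (5.29 to 1327) and 26.4 times (4.31 to 1087) the WT level. Igf2 and Gm49394 overlap 23.23% of its exon length on the opposite strand. The share of its counts that are opposite-strand reads of Igf2 was not tested.

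**Figure D1:**
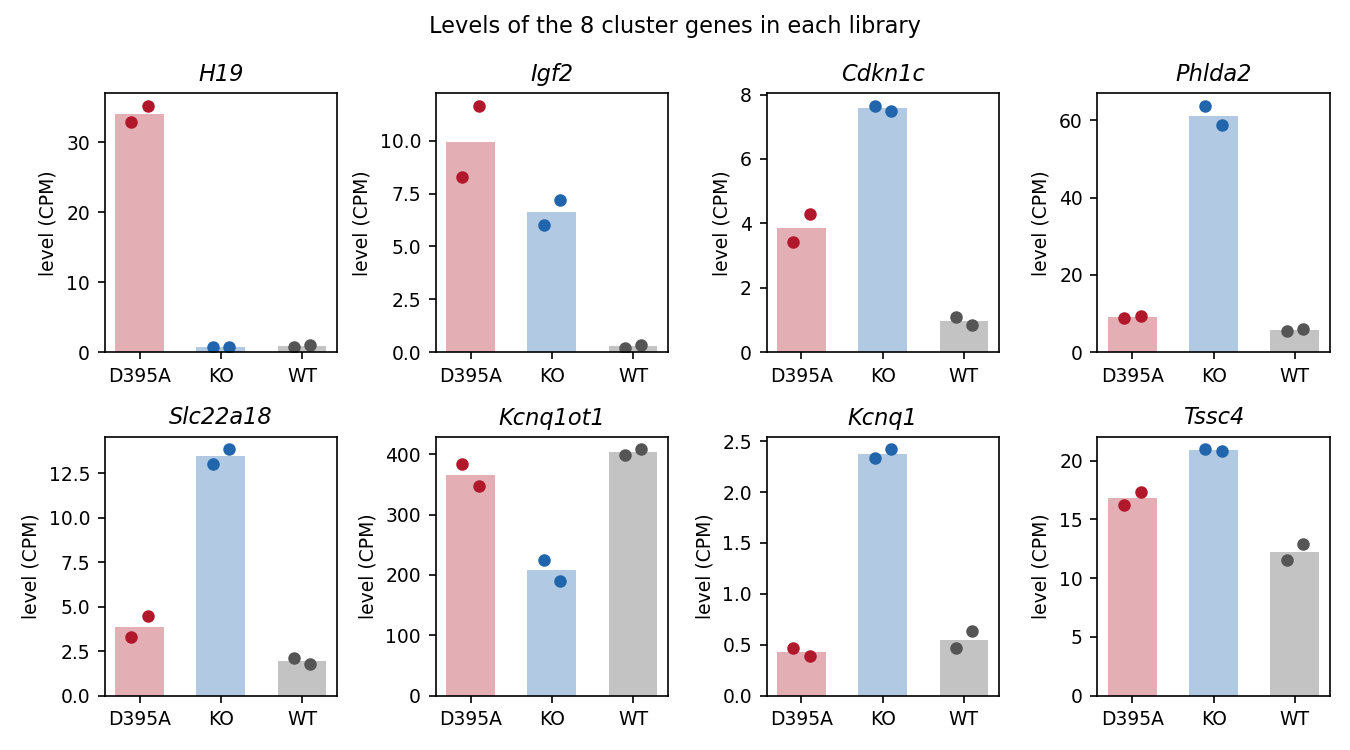
Levels of the 8 genes in CPM (vertical axes from 0, a separate scale for each gene) in D395A, KO and WT, where points are libraries and bars are means of 2. H19 stands out in D395A at 32.8 and 35.2 CPM, Phlda2 in KO at 63.8 and 58.7 CPM, and Kcnq1ot1 is lowest in KO at 224 and 191 CPM.

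Cdkn1c, which encodes the cyclin-dependent kinase inhibitor p57, had 3.41 and 4.30 CPM in D395A, 7.65 and 7.49 CPM in KO, against 1.11 and 0.854 CPM in WT. The 3 lines were ordered KO, D395A, WT with no overlap. The log2 fold change was 1.98 ± 0.22 for D395A against WT, 2.94 ± 0.21 for KO against WT and -0.96 ± 0.18 between D395A and KO. The annotated opposite-strand gene Gm44732, not counted in these tables, overlaps 30.65% of its exon length. Without KO replicate 1, the KO library with the larger opposite-strand share, KO against WT gave 2.93.

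Phlda2, a pleckstrin homology domain protein that restrains placental growth, had 8.86 and 9.37 CPM in D395A, 63.8 and 58.7 CPM in KO, against 5.38 and 5.87 CPM in WT. Both KO libraries were far above the rest, and D395A lay a little above WT without overlap. The log2 fold change was 0.70 ± 0.10 for D395A against WT, 3.45 ± 0.09 for KO against WT and -2.74 ± 0.09 between D395A and KO. Pooled counts of 4281 in KO and 432 in WT gave a ratio of 10.9 (9.88 to 12.1). No opposite-strand gene overlaps its exons.

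Slc22a18, a member of the organic cation transporter family, followed the same order, with 3.28 and 4.46 CPM in D395A, 13.1 and 13.9 CPM in KO, against 2.11 and 1.79 CPM in WT. Its log2 fold change was 1.00 ± 0.18 for D395A against WT, 2.78 ± 0.17 for KO against WT and -1.77 ± 0.16 between D395A and KO. It too has no opposite-strand overlap in its exons. In the GENCODE M21 annotation it ends 2.21 kb from Phlda2 and begins 12.7 kb from Cdkn1c, so Cdkn1c, Slc22a18 and Phlda2 lie next to each other. Their order KO, D395A, WT is not particular to them. By group means, Tssc4, Cd81, Tspan32 and Osbpl5, elsewhere in the region, had the same order.

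Kcnq1ot1 was the most abundant of the 8 by count, with 384 and 348 CPM in D395A, 224 and 191 CPM in KO, against 399 and 408 CPM in WT. Both KO libraries lay below all others, and D395A lay below WT by a small margin. The log2 fold change was -0.14 ± 0.08 for D395A against WT, -0.96 ± 0.08 for KO against WT and 0.82 ± 0.08 between D395A and KO. It is annotated as 1 exon of 93092 bases at chr7:143203458-143296549 (minus strand), inside Kcnq1, and opposite-strand genes overlap 1.2% of it (1119 bases).

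Kcnq1, which encodes the pore-forming subunit of a voltage-gated potassium channel, had 0.468 and 0.388 CPM in D395A, 2.33 and 2.42 CPM in KO, against 0.467 and 0.634 CPM in WT. KO was above both other lines, while D395A and WT overlapped. KO against WT gave a log2 fold change of 2.11 ± 0.41, and pooled counts of 166 and 42 gave a ratio of 4.35 (3.09 to 6.26). D395A against WT gave -0.37 ± 0.45, and 25 and 42 pooled counts gave 0.769 (0.449 to 1.29), so a difference was not detectable at this depth. Kcnq1 exons share 121 bases with Kcnq1ot1. The level of Kcnq1 was 2.33 and 2.42 CPM in the KO libraries whose opposite-strand shares were 1.40% and 0.339%.

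Tssc4, a gene between Kcnq1 and Cd81, had 16.2 and 17.4 CPM in D395A, 21.0 and 20.8 CPM in KO, against 11.5 and 12.9 CPM in WT. The lines did not overlap, and the log2 fold change was 0.47 ± 0.09 for D395A against WT and 0.78 ± 0.09 for KO against WT. Trpm5, at 0.256 CPM or less in every library, overlaps 11.9% of its exon length on the opposite strand.

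**Figure D2:**
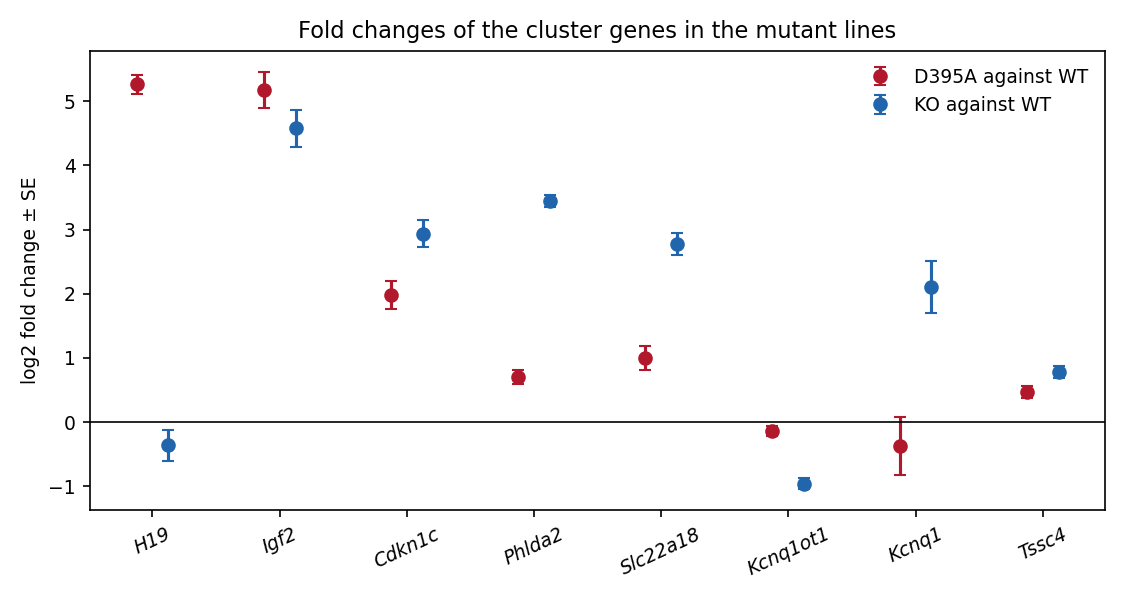
Log2 fold change against WT for the 8 genes in D395A and KO, with points for the fitted value and bars for ± 1 SE. H19 is at 5.26 in D395A and -0.36 in KO, Igf2 is above 4.5 in both, and Phlda2, Slc22a18, Cdkn1c and Kcnq1 are higher in KO than in D395A.

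In KO against WT, 6 of the 8 genes were called higher and 1 lower at an adjusted p under 0.05, where 66.2% of all 15663 genes tested were called (33.6% higher and 32.6% lower). In D395A against WT, 6 were called higher and 0 lower, where 70.3% of all genes were called (36.3% higher and 34.0% lower). In D395A against KO, 3 were called higher and 5 lower, where 50.4% were called (26.5% higher and 23.8% lower). All 8 genes passed the filter on low counts, and since these contrasts chose them, nothing is read from these counts. Between D395A and KO, Igf2 was not called with DESeq2 (log2 0.58), without D395A replicate 2 (0.32) or without KO replicate 1 (0.47), and Tssc4 was not called without D395A replicate 1 (-0.27). In D395A against WT, Kcnq1ot1 was called lower with no filter on low counts (-0.16) and without D395A replicate 1 (-0.21). With only libraries of like opposite-strand share compared, a setting chosen after seeing the data, no value of the 8 genes moved by more than 1.11-fold: Phlda2 gave 3.40 for KO replicate 2 against WT, and H19 gave 5.59 for D395A against KO replicate 1.

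Per kilobase of exon, taken over the union of annotated exons, the order of levels within a line also differed. This union is 1121 bases for Phlda2, whose longest annotated transcript has 757, and 1845 for Tssc4, whose longest has 1735. The order of Phlda2 and Tssc4 in D395A and WT therefore depends on the length used. In D395A, H19 came first at 13.8 CPM per kb, before Tssc4 at 9.10, Phlda2 at 8.13 and Kcnq1ot1 at 3.93 CPM per kb. Slc22a18, Cdkn1c and Igf2 followed at 2.28, 1.89 and 1.74 CPM per kb, and each overlapped its neighbour in that order between libraries. In KO, Phlda2 came first at 54.6 CPM per kb, then Tssc4 at 11.3 and Slc22a18 at 7.92, and H19 was last at 0.279 CPM per kb. In WT, Tssc4 came first at 6.61 CPM per kb, before Phlda2 at 5.02 and Kcnq1ot1 at 4.34, and Igf2 was last at 0.0485 CPM per kb. No neighbours in the KO and WT orders overlapped between libraries. Kcnq1ot1, which had by far the most counts, was thus at rank 4 in D395A, rank 5 in KO and rank 3 in WT per kilobase of its long annotated exon.

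The 5-letter sequence GGACT, the most common core of m6A sites in mammalian RNA, was counted on the longest annotated transcript of each gene. H19 held 6 in 2286 bases, or 2.62 per kb, more than 96.2% of 15484 genes tested. Slc22a18 held 5 in 1552 bases, or 3.22 per kb, more than 98.6% of genes, while the median gene held 1.04 per kb. Kcnq1ot1 held 80, at 0.859 per kb, Phlda2 held 1 (1.32 per kb), Cdkn1c 2 (1.05 per kb), Tssc4 3 (1.73 per kb), Igf2 2 (0.424 per kb) and Kcnq1 1 (0.33 per kb). The 2 genes with dense GGACT thus had different patterns, H19 being highest in D395A and Slc22a18 in KO. Whether these sites are methylated was not analysed here.

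Genes around the 8 were looked at to see how far such differences extended. Among 15 other genes tested within 300 kb of the cluster, edgeR called 10 higher and 3 lower in KO against WT (median log2 fold change 1.11) and 6 higher and 3 lower in D395A against WT (median 0.69), beside all-gene medians of 0.01 and 0.02 and the shares of all genes called given above. Over all 1232 genes tested on chromosome 7, the medians were 0.14 for KO and 0.10 for D395A. Chromosomes 8 and 11 had the lowest medians, -0.48 and -0.41 in KO and -0.35 and -0.49 in D395A. Values of single genes on chromosomes 8 and 11, here and below, are not corrected for this shift, and its cause was not tested. Lsp1, a leukocyte actin-binding protein gene 117 kb from H19, rose in both mutant lines, with 1.58 and 3.05 CPM in D395A, 2.42 and 2.25 CPM in KO, against 0.0246 and 0.138 CPM in WT. Its log2 fold change was 4.83 ± 0.60 for D395A (adjusted p = 1.1e-05) and 4.83 ± 0.59 for KO (adjusted p = 1.2e-05). Both values rest on low WT counts: leaving out WT replicate 1 gave 4.04 in both lines, and leaving out WT replicate 2 gave 6.37 in both.

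Mrpl23, a mitochondrial ribosomal protein gene next to H19, rose to 35.3 and 36.9 CPM in D395A and 30.9 and 29.7 CPM in KO, against 18.5 and 18.6 CPM in WT (log2 0.96 ± 0.07, adjusted p = 1.1e-07, and 0.71 ± 0.07, adjusted p = 2.0e-06). Cd81, a tetraspanin gene beside Tssc4, rose by log2 0.59 ± 0.06 in D395A (adjusted p = 2.8e-06) and 0.77 ± 0.06 in KO (adjusted p = 2.6e-07). Tspan32, another tetraspanin gene, had 2.39 and 1.86 CPM in D395A, 5.09 and 4.84 CPM in KO, against 1.62 and 1.21 CPM in WT. It rose in KO (1.80 ± 0.25, adjusted p = 3.1e-05), and D395A gave 0.56 ± 0.26 (adjusted p = 0.070, and 0.048 without D395A replicate 2). Osbpl5, an oxysterol-binding protein gene imprinted in mouse placenta, rose in both (1.16 ± 0.24, adjusted p = 0.00095, in D395A and 1.74 ± 0.24, adjusted p = 2.8e-05, in KO).

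On the far side of Phlda2 the next genes went the other way. Nap1l4, a histone chaperone gene 10.4 kb from Phlda2, fell to 118 and 121 CPM in D395A and 121 and 117 CPM in KO, against 143 and 140 CPM in WT (log2 -0.24 ± 0.06, adjusted p = 0.0029, and -0.25 ± 0.06, adjusted p = 0.0025). Cars, the cysteinyl-tRNA synthetase gene, fell by 0.66 ± 0.07 on the log2 scale in D395A (adjusted p = 2.3e-06) and by 0.79 ± 0.07 in KO (adjusted p = 4.7e-07). Ascl2, a transcription factor of trophoblast, was at 0.767 and 0.693 CPM in D395A, 1.39 and 1.58 CPM in KO, against 1.13 and 0.551 CPM in WT, and passed in neither comparison (adjusted p = 0.70 and 0.13), although the KO library of low opposite-strand share gave 0.050, just under the threshold. Without WT replicate 1, the D395A value of Ascl2 was 0.39 in place of -0.21. Between Igf2 and Ascl2, Ins2 had 0 counts in all libraries and Th too few to be tested. Of a list of 25 genes of this region, 14 were tested, and 7 rose and 4 fell in KO, where 66.2% of all genes were called, while 6 rose and 4 fell in D395A, where 70.3% were called. The list medians were 0.74 in KO and 0.53 in D395A, beside 0.01 and 0.02 for all genes. As the list was made with earlier results of these data known, nothing is read from its counts.

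**Figure D3:**
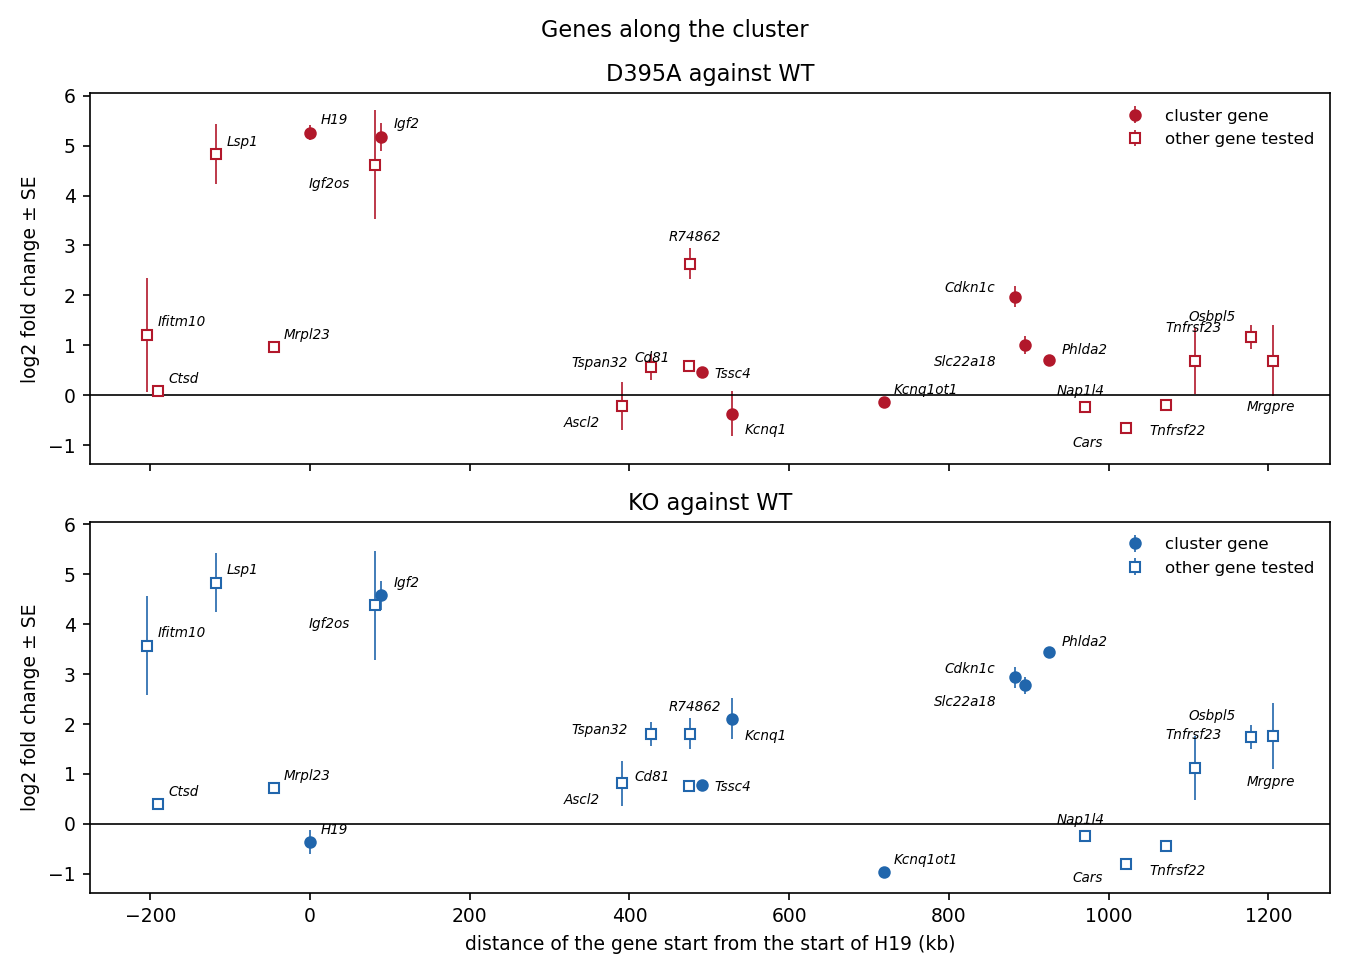
Log2 fold change ± SE of the 8 genes (filled circles) and of 15 other genes tested within 300 kb (open squares), by the distance of the gene start from that of H19 in kb, for D395A (top) and KO (bottom) against WT. H19 is at 5.26 in D395A and -0.36 in KO while Igf2 is high in both, and the 3 genes Cdkn1c, Slc22a18 and Phlda2, between 882.9 and 925.0 kb, are higher in KO than in D395A.

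Genes of imprint maintenance and allele-specific silencing were listed, with the enzymes that write and oxidise DNA methylation. Of 30 listed, 29 were tested, and 7 rose and 18 fell in D395A (median log2 -0.32), with the same numbers in KO (median -0.27). Over all genes, 36.3% were called higher and 34.0% lower in D395A, and 33.6% higher and 32.6% lower in KO. This list and those below were also made with earlier results of these data known, so nothing is read from their counts. Dppa3, which protects maternal methylation in the zygote, differed most between the lines, with 83.6 and 69.0 CPM in D395A, 2.53 and 2.65 CPM in KO, against 25.2 and 27.6 CPM in WT. It rose in D395A (1.53 ± 0.09, adjusted p = 1.4e-08) and fell in KO (-3.35 ± 0.13, adjusted p = 4.8e-10). Dnmt3l, the cofactor of de novo DNA methylation, fell in both (-2.70 ± 0.15, adjusted p = 9.3e-09, in D395A and -0.78 ± 0.13, adjusted p = 0.00014, in KO). Tet2, a methylcytosine oxidase, had 80.5 and 91.2 CPM in D395A, 517 and 479 CPM in KO, against 356 and 370 CPM in WT. It fell in D395A (-2.08 ± 0.08, adjusted p = 2.5e-10) and rose in KO (0.46 ± 0.07, adjusted p = 0.00014).

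Ezh2 and Suz12, subunits of the Polycomb complex PRC2, which acts with Kcnq1ot1 in the placenta, fell in both lines. Ezh2 had 144 and 149 CPM in D395A, 93.0 and 96.5 CPM in KO, against 251 and 247 CPM in WT. Suz12 had 190 and 195 CPM in D395A, 238 and 242 CPM in KO, against 580 and 596 CPM in WT (log2 -1.61 ± 0.06, adjusted p = 3.9e-10, in D395A and -1.29 ± 0.06, adjusted p = 3.0e-09, in KO). Zfp57, which binds methylated imprinting control regions, fell by 0.49 ± 0.08 in D395A (adjusted p = 0.00010) and by 0.58 ± 0.08 in KO (adjusted p = 2.6e-05) on the log2 scale. Its partner Trim28 fell by 0.43 ± 0.07 in D395A (adjusted p = 0.00014), and by 0.27 ± 0.07 in KO (adjusted p = 0.0051), a call lost without WT replicate 1 (adjusted p = 0.10) or KO replicate 1 (adjusted p = 0.063). Dnmt1, the maintenance methyltransferase, fell by 0.54 ± 0.07 in KO (adjusted p = 1.4e-05) and by 0.21 ± 0.07 in D395A (adjusted p = 0.014), the second call being lost without WT replicate 1 (adjusted p = 0.072) or WT replicate 2 (adjusted p = 0.12).

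Ctcf, the insulator factor of the H19-Igf2 domain, had 164 and 186 CPM in D395A, 143 and 157 CPM in KO, against 187 and 182 CPM in WT. D395A, the line with high H19, gave -0.08 ± 0.08 (adjusted p = 0.37), and KO gave -0.30 ± 0.08 (adjusted p = 0.0035, and 0.051 without WT replicate 1). For D395A the call also depended on 1 library, since without D395A replicate 2 it was -0.18 (adjusted p = 0.038). Ctcfl, its paralogue, fell in both lines (-2.70 ± 0.58, adjusted p = 0.0011, in D395A and -3.38 ± 0.60, adjusted p = 0.00027, in KO), with 2.11 and 1.24 CPM in WT at the highest.

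On the pathway of the growth factor IGF2, with Igf2 left out, 22 of 24 listed genes were tested, and 16 rose and 5 fell in D395A (median log2 0.53) while 13 rose and 5 fell in KO (median 0.59). Of all genes, 36.3% rose and 34.0% fell in D395A, and 33.6% rose and 32.6% fell in KO. Irs1, an adaptor of the insulin and IGF1 receptors, had 39.0 and 39.7 CPM in D395A, 6.17 and 7.26 CPM in KO, against 1.52 and 2.04 CPM in WT (log2 4.47 ± 0.13, adjusted p = 3.5e-11, in D395A and 1.92 ± 0.15, adjusted p = 2.0e-07, in KO). Irs2, a second such adaptor, rose by 3.26 ± 0.09 in D395A (adjusted p = 1.6e-11) and 1.68 ± 0.09 in KO (adjusted p = 7.0e-09). The insulin receptor gene Insr rose by 1.47 ± 0.10 in D395A (adjusted p = 3.9e-08) and 1.53 ± 0.10 in KO (adjusted p = 3.0e-08).

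Igf2r, the imprinted receptor that removes IGF2 by taking it to lysosomes, had 256 and 284 CPM in D395A, 390 and 394 CPM in KO, against 196 and 197 CPM in WT. It rose in both lines, by 0.46 ± 0.07 in D395A (adjusted p = 5.6e-05) and 1.00 ± 0.07 in KO (adjusted p = 5.5e-08). Igf2bp1, whose protein binds Igf2 mRNA, fell by 0.80 ± 0.08 in D395A (adjusted p = 1.0e-06) and by 0.69 ± 0.08 in KO (adjusted p = 4.3e-06). Igf1, the second IGF ligand, had 93 counts in D395A, 12 in KO and 0 in WT, which is at least 40.1-fold and at least 4.41-fold higher than a floor of 3 counts over the WT group. The binding protein gene Igfbp4 fell in both lines (-0.83 ± 0.10, adjusted p = 1.1e-05, in D395A and -1.81 ± 0.11, adjusted p = 1.7e-08, in KO). Grb10, an imprinted inhibitor of these receptors, fell in D395A (-0.66 ± 0.07, adjusted p = 2.5e-06), and KO gave 0.14 ± 0.07 (adjusted p = 0.073).

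H19 and Igf2 also belong to an imprinted gene network described in mouse, in which the zinc finger factor Plagl1 activates other imprinted genes. Plagl1 had 36.7 and 48.5 CPM in D395A, 2.76 and 4.47 CPM in KO, against 159 and 159 CPM in WT. It fell in both mutant lines (log2 -1.89 ± 0.12, adjusted p = 2.5e-08, in D395A and -5.46 ± 0.16, adjusted p = 5.7e-11, in KO). Any link between the level of Plagl1 and that of H19 or Igf2 was not tested. Of 20 listed genes of the network 17 were tested, and 11 rose and 4 fell in D395A (median log2 0.50) while 7 rose and 7 fell in KO (median 0.17), beside 70.3% of all genes called in D395A and 66.2% in KO. Nnat, a proteolipid gene of brain, had 14.7 and 12.0 CPM in D395A, 0.398 and 0.0864 CPM in KO, against 3.49 and 2.98 CPM in WT. It rose in D395A (2.04 ± 0.22, adjusted p = 3.5e-06) and fell in KO (-3.72 ± 0.36, adjusted p = 1.3e-06, and -3.01 or -5.17 without KO replicate 2 or 1). Like H19, Nnat and Meg3, a maternally expressed noncoding RNA of chromosome 12, were each lower in both KO libraries than in any D395A library. Meg3 had 45.3 and 44.4 CPM in D395A, 0.0284 and 0.0864 CPM in KO, against 55.9 and 59.1 CPM in WT.

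Snrpn, of the Prader-Willi region of chromosome 7, fell in KO (-2.21 ± 0.58, adjusted p = 0.0048, and -3.13 without KO replicate 2), and D395A gave -0.98 ± 0.54 (adjusted p = 0.12). The paternally expressed neighbours Peg10 and Sgce were, like Igf2, high in both lines: Peg10 had 521 and 556 CPM in D395A, 177 and 224 CPM in KO, against 52.1 and 54.7 CPM in WT. Sgce had 51.3 and 51.5 CPM in D395A, 14.6 and 13.7 CPM in KO, against 4.72 and 5.18 CPM in WT. Slc38a4, an amino acid transporter gene, fell in both (-2.99 ± 0.07, adjusted p = 6.2e-12, in D395A and -1.65 ± 0.06, adjusted p = 4.1e-10, in KO). Dcn, which encodes the proteoglycan decorin, had 72 counts in D395A, 7 in KO and 0 in WT, that is at least 31.0-fold and at least 2.57-fold higher than the floor in WT. All 7 KO counts were in KO replicate 2, and KO against WT did not pass (adjusted p = 0.052, 1.0 without KO replicate 2 and 0.0057 without KO replicate 1).

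Markers of cell types in which these genes are known to be abundant were measured beside them. Trophoblast markers (14 genes) summed to 112 and 106 CPM in D395A, 141 and 134 CPM in KO, against 141 and 141 CPM in WT, and Elf5 was at 0 counts in D395A. Of 12 tested, 6 rose and 3 fell in D395A, and 3 rose and 1 fell in KO. Among all genes, 70.3% were called in D395A and 66.2% in KO. Tead4, a factor of trophoblast fate, fell to 12.1 and 14.1 CPM in D395A, and had 62.6 and 57.2 CPM in KO, against 58.4 and 58.9 CPM in WT, which carries the lower sum of D395A. Cdx2, another such factor, rose in D395A, with 3.11 and 2.72 CPM in D395A, 0.114 and 0.0576 CPM in KO, against 0.123 and 0.0551 CPM in WT (log2 4.95 ± 0.59, adjusted p = 8.4e-06, and 5.62 without WT replicate 1). Gata3 rose in both lines (3.07 ± 0.56, adjusted p = 0.00032, in D395A and 2.86 ± 0.56, adjusted p = 0.00060, in KO).

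Extraembryonic endoderm markers (18 genes) summed to 226 and 247 CPM in D395A, 542 and 546 CPM in KO, against 486 and 472 CPM in WT. Of these, Afp and Ttr were at 0 counts in D395A, Ttr and Apoa4 in KO, and Apoa4 in WT. Of 12 tested, 6 rose and 4 fell in D395A, and 7 rose and 3 fell in KO, where 70.3% and 66.2% of all genes were called. The laminin gene Lama1 fell to 28.7 and 33.4 CPM in D395A and to 132 and 125 CPM in KO, against 205 and 210 CPM in WT. Gata4 (log2 -2.05 in D395A and -1.41 in KO) and Gata6 (-1.15 and -1.69) were also lower in both lines. Dab2 (2.54 and 2.94), Col4a1 (0.81 and 1.77) and Col4a2 (1.44 and 2.65) were higher in both. Foxa2, a forkhead factor of endoderm, rose in both lines, with 20.2 and 22.5 CPM in D395A, 0.597 and 1.30 CPM in KO, against 0.0738 and 0.138 CPM in WT (7.63 ± 0.32, adjusted p = 5.5e-10, in D395A and 3.14 ± 0.49, adjusted p = 9.3e-05, in KO, the second being 2.48 without KO replicate 2). Mesoderm markers (12 genes) summed to 28.7 and 26.6 CPM in D395A, 42.2 and 42.2 CPM in KO, against 43.6 and 41.8 CPM in WT. Of 10 tested, 2 rose and 3 fell in D395A, and 3 rose and 2 fell in KO, beside the same shares of all genes. The smooth muscle actin gene Acta2 had 5.54 and 5.13 CPM in D395A, 0.370 and 0.144 CPM in KO, against 0.0492 and 0.0827 CPM in WT (6.28 ± 0.51, adjusted p = 2.6e-07, in D395A and 1.92 ± 0.65, adjusted p = 0.020, in KO). The KO call of Acta2 was lost without WT replicate 1 (1.59, adjusted p = 0.11) or KO replicate 1 (1.11, adjusted p = 0.28). D395A, the line with high H19, thus had the lowest sum of each list, which a few abundant members set. The single markers Cdx2, Foxa2 and Acta2 were highest there, while others fell against WT. In D395A, edgeR gave -3.02 ± 0.14 for Eomes (adjusted p = 1.9e-09) and -4.62 ± 0.51 for T (adjusted p = 3.8e-06). Pdgfrb gave -1.43 ± 0.09 (adjusted p = 2.5e-08). In KO, Eomes, T and Pdgfrb were also lower than in WT (-0.70, -4.68 and -0.57). The stem cell marker sum of D395A was also the lowest. The part of cell composition in the levels of the 8 genes was not tested.

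The genes whose pattern over the 6 libraries came nearest to those of H19 and Phlda2 were found by the root mean square difference of log2(CPM + 0.1), after the WT mean of each gene had been subtracted. Among 13822 genes, the nearest to H19 were Car4, a carbonic anhydrase gene (0.22), Igfbp5, an IGF-binding protein gene (0.345), Foxb1, a forkhead factor gene (0.437), the noncoding RNA Hotairm2 (0.467) and Gad1, which encodes the enzyme that makes GABA (0.506). Igfbp5 had 51.4 and 53.9 CPM in D395A, 1.42 and 1.56 CPM in KO, against 2.09 and 2.15 CPM in WT. Gad1 had 170 and 176 CPM in D395A, 5.89 and 7.43 CPM in KO, against 9.05 and 8.41 CPM in WT. Car4 had 360 counts in D395A, 1 in KO and 3 in WT, which is 155 times the WT level (52.6 to 756). Foxb1 and Hotairm2 had 0 counts in WT, and in D395A were at least 138-fold and at least 91.8-fold higher than the floor of 3 counts.

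The nearest to Phlda2 were Dpep3, a dipeptidase gene (0.176), Naaa, which encodes an N-acylethanolamine hydrolase (0.22), Megf11, a cell surface receptor gene (0.255), Tbx15, a T-box factor gene (0.264) and Dnah10, a dynein heavy chain gene (0.28). Megf11 had 18.5 and 15.8 CPM in D395A, 82.7 and 74.7 CPM in KO, against 8.38 and 8.02 CPM in WT. Dpep3 had 3.24 and 2.38 CPM in D395A, 17.7 and 18.4 CPM in KO, against 1.77 and 1.63 CPM in WT. None of these 10 genes is among the 8, and none of the 9 with an annotated position lies on chromosome 7. Since the 6 libraries form 3 groups, the likeness mainly reflects 3 group means.

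**Figure D4:**
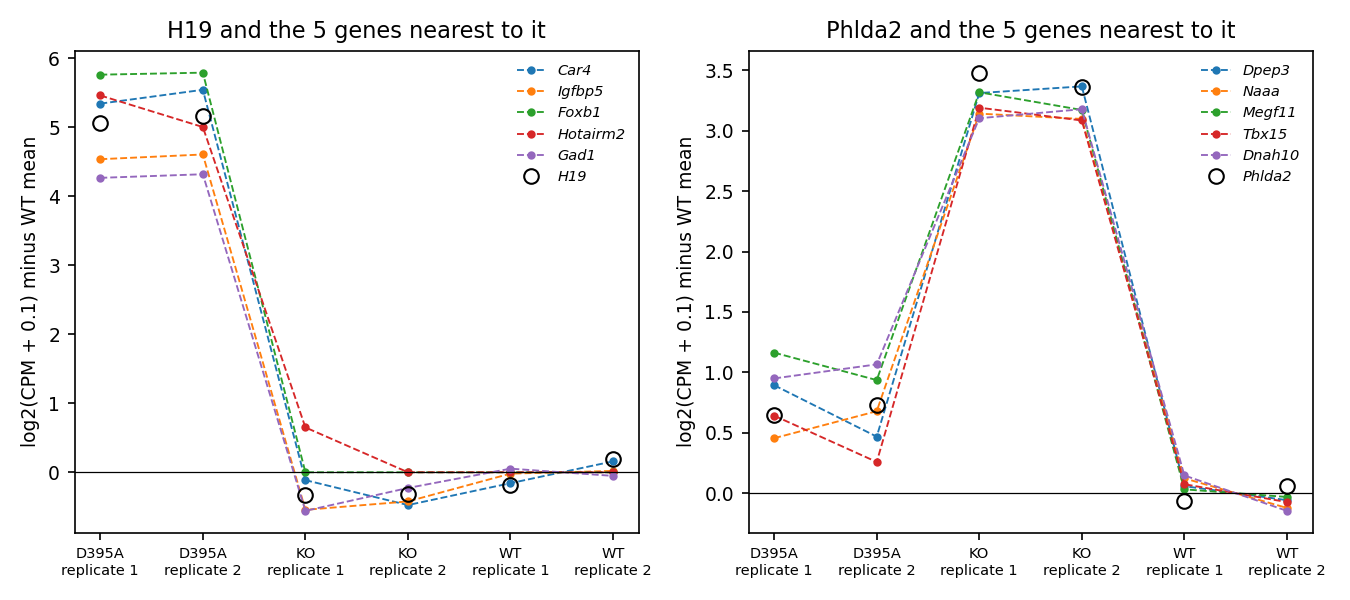
Log2(CPM + 0.1) minus the mean of the WT libraries for H19 (left) and Phlda2 (right), drawn as open circles, and for the 5 genes nearest to each, drawn as dots joined by dashed lines only to follow a gene. H19 and its nearest genes are high in both D395A libraries alone, and Phlda2 and its nearest genes are highest in both KO libraries.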

How the data were processed

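Gene counts of 6 libraries were analysed. The authors deposited 1 table of raw counts per library, with 24984 symbols. Per the submitters' processing notes, Trimmomatic 0.36, STAR 2.7, HTSeq 0.11.2 and the mm10 genome were used, and per the labels' protocols the libraries were directional. Which strand setting and annotation release the counting used is not given in the sources used here. Summary lines of the counter, 29.0% to 44.2% of each table's total, were left out.

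The tests used edgeR 4.0.16 (R 4.3.3): its filterByExpr, TMM scaling and quasi-likelihood F test (all 6 libraries in 1 fit without covariates, 3 residual degrees of freedom), with Benjamini-Hochberg adjustment over 15663 genes and a threshold of 0.05. The fit was tested on simulated data. Fold changes are log2 ± SE, and levels are TMM-scaled CPM, where 1 count is worth 0.0246 to 0.0426 CPM. Intervals of pooled count ratios and the floor of 3 counts cover counting error only. Positions and exon lengths are from GENCODE M21 (GRCm38), and sequences from RefSeq tables (GRCm38.p6).

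The 8 genes and all gene lists were chosen with earlier results of these data known. Genes named beyond the 8 were a fixed set of regulators and neighbours, and the 5 genes nearest to H19 and to Phlda2. Others were taken from the most changed of each list (up to 4 called per comparison with WT, at 1 CPM or more). Not all of these are named. Alternatives were other scalings, filters, DESeq2 1.42.0, limma-voom (limma 3.58.1), a replicate block, leaving out each library, and, chosen after seeing the data, only libraries of like opposite-strand share.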

Additional observations from a re-analysis of the deposited data

Results flagged for a closer look

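H19 was above WT in both D395A libraries and below WT in both KO libraries, although the counting interval of the KO to WT ratio (0.526 to 1.14) holds 1. Its log2 fold change was 5.62 for D395A against KO, and this difference was not tested, since H19 was chosen for it. Of 56 other genes of the text, edgeR called 43 different between D395A and KO (26 higher and 17 lower in D395A, adjusted p under 0.05). Tdgf1, Lin28a, Eomes, T, Pdgfrb, Gata4, Gata6, Dab2, Col4a1 and Col4a2 are not among the 56. Many of the 56 were chosen for how they changed, so nothing is read from this count beside the 50.4% of all genes called.

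Among neighbours, the log2 fold change of D395A against KO was -0.18 for Cd81, -1.24 for Tspan32, -0.58 for Osbpl5 and 0.25 for Mrpl23. The calls of Cd81, Osbpl5 and Mrpl23 were lost without KO replicate 2 (adjusted p = 0.14, 0.082 and 0.077), and other single libraries also ended them. Mettl3 itself gave 1.67. Among genes of imprint maintenance and DNA methylation, it was 0.22 for Ctcf (adjusted p = 0.16 without D395A replicate 2 and 0.22 without KO replicate 1), 0.33 for Dnmt1, -1.92 for Dnmt3l, 4.87 for Dppa3, 0.63 for Ezh2, -0.32 for Suz12 and -2.53 for Tet2.

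On the IGF pathway, the difference was 3.20 for Igf1, -0.54 for Igf2r, -0.80 for Grb10, 2.55 for Irs1, 1.57 for Irs2, 0.98 for Igfbp4 and 5.14 for Igfbp5. In the imprinted network it was 3.57 for Plagl1, 9.52 for Meg3 (10.44 without KO replicate 2), 5.75 for Nnat (7.20 and 5.04 without KO replicate 1 and 2), 1.86 for Sgce, 1.42 for Peg10 and -1.34 for Slc38a4. Dcn, with 7 counts in KO, gave 3.61, and 8.45 without KO replicate 2, 2.62 without KO replicate 1 and 3.19, no longer called (adjusted p = 0.067), without D395A replicate 1. In the families of Cdkn1c and Phlda2 it was 0.52 for Cdkn1b, 1.85 for Phlda1 and -0.43 for Phlda3. Among markers of other cell types it was 5.03 for Cdx2, -2.18 for Tead4, 4.49 for Foxa2 (5.15 without KO replicate 2), -2.05 for Lama1 and 4.35 for Acta2 (5.17 without KO replicate 1).

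Genes nearest to H19 in pattern differed as that choice fixes, so their values are a description: 4.70 for Gad1 on the log2 scale, a ratio of pooled counts of 422.4 for Car4 (75.3 to 16731) and 125.0 for Hotairm2 (34.2 to 1039), and at least 125.6-fold for Foxb1, which had 0 counts in KO. Those nearest to Phlda2 gave -2.71 for Dpep3, -2.56 for Naaa, -2.21 for Megf11, -2.75 for Tbx15 and -2.14 for Dnah10.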

How the results depend on the processing

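The number of genes called stayed within 1.5 times its main value under all 44 alternatives, and no value called in either fit changed sign. Without 1 library, it was 8523 to 9675 for KO against WT (main 10368), 9398 to 10376 for D395A against WT (11011) and 6918 to 7143 for D395A against KO (7889). A replicate block gave 10220, 10843 and 7832. The difference between replicates 1 and 2 correlated at -0.20 between D395A and KO, and at 0.008 and 0.010 for D395A and KO with WT. Same-numbered libraries thus did not deviate in the same direction, but a batch that crosses the numbers was not tested.

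For the 8 genes, no alternative moved a fold by over 1.5 times. The largest shift was 1.38-fold, for Igf2 in KO against WT without WT replicate 2. D395A against WT has no libraries of like opposite-strand share to compare. Over 73 other genes and all alternatives but the like-strand one, 2948 values kept direction and side of the threshold, 63 lost the call, 17 gained it and 26, called in neither fit, changed sign, and the cause was not tested. Against WT, these were Ascl2 and Ctcf in D395A (0.39 without WT replicate 1 and 0.014 without D395A replicate 1), and in KO Cdx2 (0.61 without WT replicate 1, 0.32 without KO replicate 2), Tead4 and Cdkn1b, the last 2 by under 0.1. The low WT counts of Igf2, Lsp1 and Igf2os (21, 6 and 1) limit the size of their folds.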

Other observations

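The families of Cdkn1c and Phlda2 have members outside the cluster. Cdkn1a, which encodes the cyclin-dependent kinase inhibitor p21, rose in both lines, with 408 and 403 CPM in D395A, 367 and 385 CPM in KO, against 164 and 157 CPM in WT (log2 1.34 ± 0.06, adjusted p = 2.2e-09, and 1.23 ± 0.06, adjusted p = 5.5e-09). Cdkn1b, which encodes p27, rose in D395A (0.48 ± 0.07, adjusted p = 3.0e-05), and KO gave -0.03 ± 0.07 (adjusted p = 0.67). Phlda3, a target of p53, had 58.4 and 51.3 CPM in D395A, 75.9 and 71.9 CPM in KO, against 17.9 and 15.3 CPM in WT (1.72 ± 0.09, adjusted p = 5.0e-09, and 2.15 ± 0.09, adjusted p = 7.3e-10). Phlda1 gave 0.93 ± 0.28 in D395A (adjusted p = 0.0095, and 0.080 without WT replicate 2) and -0.92 ± 0.30 in KO (adjusted p = 0.016, 0.10 without WT replicate 1 and 0.054 without KO replicate 1). Of these 4 genes, 4 rose in D395A and 2 rose and 1 fell in KO, where 70.3% and 66.2% of all genes were called.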
